A study of Homo sapiens with 4 samples.

Results

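The matrix metalloproteinases (MMPs) and the tissue inhibitors of metalloproteinases (TIMPs) were examined as 10 genes, MMP1, MMP2, MMP9, MMP11, MMP14, MMP15, MMP16, TIMP1, TIMP2 and TIMP3, out of 19775 genes on the array. They were chosen by name, and 28 of the 54675 probe sets were annotated to 1 of them alone. The brightest probe set of a gene, by mean log2 signal over the arrays, stands for it, and the dimmer ones are given beside it. The ING3 cells were of the line MIA PaCa-2, which comes from a human pancreatic carcinoma, stably carrying FLAG-tagged full-length ING3 from a CMV-promoter lentiviral vector (2 arrays, a and b). The control cells were the same line carrying a GFP lentivirus (2 arrays, a and b), grown in the same medium with fetal bovine and horse serum, and both lines had gone through selection. The labels speak of selected clones but give neither their number nor whether they were pooled. ING3 belongs to a chromatin complex that acetylates histones (NuA4/TIP60), and the study set cells overexpressing it against control cells.

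MMPs are zinc-dependent proteases, most of them secreted and some anchored in the membrane, that cut the proteins of the extracellular matrix. They are made as inactive pro-enzymes, are activated by the removal of a pro-domain, and are held in check by the TIMPs, which bind the active site. In pancreatic carcinoma, stromal and inflammatory cells make MMPs and TIMPs as well as the carcinoma cells do, and the arrays here read a culture of 1 carcinoma line.

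The arrays of a group were technical duplicates by the series' design text, so all p-values set a difference against technical spread only, not against the spread between independent cultures. The number of arrays limits the precision. The target transcript was checked first: the brightest ING3 probe set had a signal of 521 and 541 in ING3 cells, against 338 and 373 in control cells, which did not pass the test (log2 difference 0.58, SE 0.13, limma adjusted p = 0.071), and none of its 3 other probe sets had both ING3 arrays above both control arrays. Whether these probe sets lie within the lentiviral insert, and so read the introduced ING3, was not tested. As a sign of RNA quality, the ACTB controls gave a 3′ signal over 5′ signal of 2.06 and 2.03 on the ING3 arrays, against 2.58 and 1.80 on the control arrays. Of the epithelial markers KRT8, KRT18, KRT19 and EPCAM, the first 3 were above the filter on dim genes (defined below) and EPCAM was under it, and KRT8 and KRT19 were called higher in the ING3 cells (log2 differences 0.32 and 0.52). Both keratin calls were lost with averaged probe sets (adjusted p = 0.080 for KRT8, 0.20 for KRT19). KRT8 had 1 probe set and stayed at 0.32 there, so for it only the fit over other genes changed. Without either control array both calls were lost too, at log2 differences of 0.27 and 0.37 for KRT8 and 0.48 and 0.56 for KRT19. The KRT8 call was also lost after quantile normalization (adjusted p = 0.054), after cyclic loess (0.065) and without the filter (0.090). Of 8 fibroblast and stellate cell markers, 5 were above the filter (COL1A1, COL1A2, COL3A1, DCN and ACTA2), while LUM, PDGFRB and FAP were under it, and the summed signal of the list was 6046 and 6449 on the ING3 arrays and 7098 and 6963 on the control arrays. The summed signal of the leukocyte and macrophage list was 206 and 202 on the ING3 arrays and 192 and 111 on the control arrays. PTPRC, CD14 and CSF1R were under the filter and ITGAM was above it. The summed signal of the endothelial list was 456 and 369.9 on the ING3 arrays and 467 and 412 on the control arrays. PECAM1 and CDH5 were above the filter and VWF was under it. The part of these markers in the results was not tested.

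Promoter sequences are shown for 3 of the genes. The AP-1 transcription factors, textbook regulators of several MMP genes and of TIMP1, included genes that rose in the ING3 cells (below). MMP14 and MMP15, a pair of membrane-type relatives, had ING3 arrays on opposite sides of the control arrays. Neither difference passed the test (limma adjusted p = 0.51 for MMP14 and 0.38 for MMP15), and the second MMP15 probe set went the other way. The promoter table used, made from RefSeq (GRCh38.p14), matched 5 of the 10 genes, namely MMP11, MMP14, MMP15, TIMP1 and TIMP3, and the promoters of MMP1, MMP2, MMP9, MMP16 and TIMP2 were not analysed here. Each run is the 250 bases before the annotated transcription start, 5′ to 3′ on the plus strand. TIMP1 lies at chrX:47582186-47582435, MMP14 at chr14:22836335-22836584 and MMP15 at chr16:58025504-58025753. Capitals mark matches, on either strand, to the AP-1 heptamer TGANTCA, the AP-1-like heptamer TGAGTAA, the ETS hexamer AGGAAG and the GC box GGGCGG.
TIMP1: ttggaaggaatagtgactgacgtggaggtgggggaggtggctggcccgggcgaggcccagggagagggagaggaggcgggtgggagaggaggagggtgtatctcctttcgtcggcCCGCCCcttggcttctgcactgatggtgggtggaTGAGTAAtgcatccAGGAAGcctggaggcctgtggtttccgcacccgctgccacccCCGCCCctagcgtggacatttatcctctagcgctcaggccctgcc
MMP14: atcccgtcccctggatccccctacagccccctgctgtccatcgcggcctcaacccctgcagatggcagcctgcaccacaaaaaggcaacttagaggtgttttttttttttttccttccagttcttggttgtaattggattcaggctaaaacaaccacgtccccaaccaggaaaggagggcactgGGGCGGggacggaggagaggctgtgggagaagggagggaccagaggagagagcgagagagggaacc
MMP15: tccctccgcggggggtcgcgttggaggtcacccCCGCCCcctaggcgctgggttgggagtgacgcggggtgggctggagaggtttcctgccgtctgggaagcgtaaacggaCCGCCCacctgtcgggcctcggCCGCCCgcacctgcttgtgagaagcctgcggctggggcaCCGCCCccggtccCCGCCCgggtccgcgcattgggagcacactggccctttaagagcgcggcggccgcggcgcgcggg
The TIMP1 window held the AP-1-like heptamer, starting 101 bases before the transcription start, the ETS hexamer 87 bases before it, and 2 GC boxes, and the matches did not overlap each other. The MMP14 window held 1 GC box and the MMP15 window 5, and neither held a match to the other 3 motifs. No one of the 5 windows held TGANTCA. Among all 35116 promoter windows of this length, 6.57% held TGANTCA, 2.21% TGAGTAA, 28.7% AGGAAG and 42.6% GGGCGG. These matches describe the letters of the windows, and their part in the expression of the genes was not tested. The motifs were chosen by hand, TGAGTAA as an AP-1 variant, so the shares do not test the TIMP1 match. TIMP1 was not called (below).

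Of the 10 genes, 8 passed the filter on dim genes and were tested, 6 of the 7 MMPs and 2 of the 3 TIMPs. The filter was a mean log2 signal, over all 4 arrays, no lower than the middle probe set of the array (a signal of about 64.6), and it left out MMP2 and TIMP3. MMP1 rose in the ING3 cells, and it was the only one of the 8 to be called, that is, to have a limma adjusted p under 0.05 over all 12190 genes tested. Among all genes tested, 1.03% were called higher and 0.476% were called lower. The arrays of the groups did not overlap for 6 of the 8 genes, against 49.2% of all genes tested. The median log2 difference of the 8 genes was 0.12, against -0.01 for all genes tested.

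**Figure D1:**
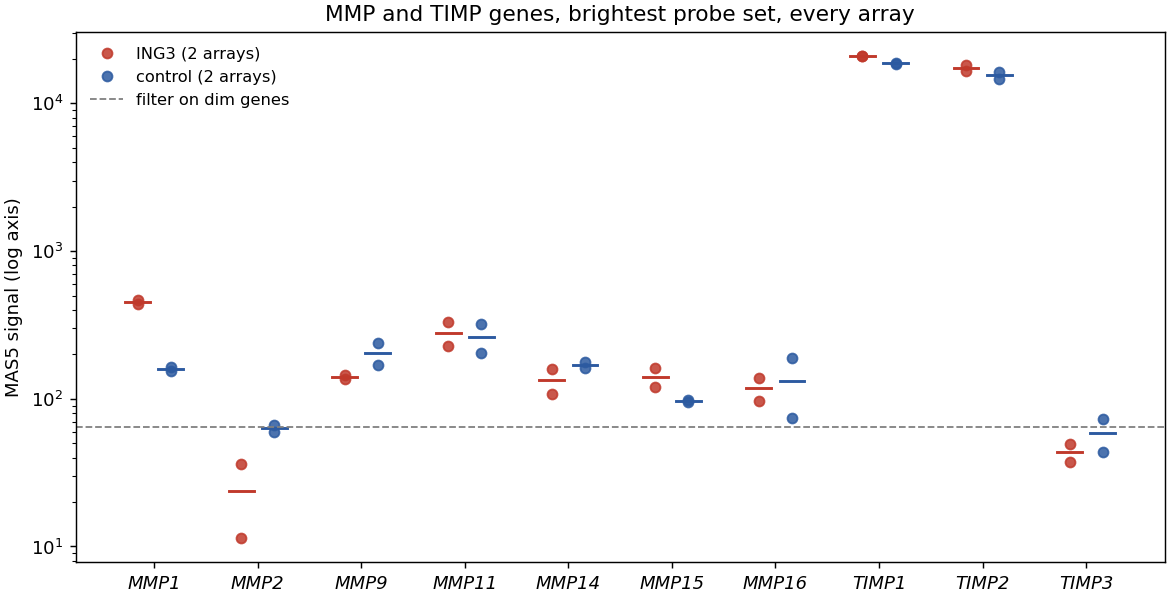
MAS5 signal (log axis) of the brightest probe set of each of the 10 genes on each array, ING3 arrays left in red and control arrays right in blue, with bars at the group means and a dashed line at the filter on dim genes (64.6). Both MMP1 points of the ING3 cells (465 and 436) lie well above both of the control cells (155 and 165), TIMP1 and TIMP2 lie far above the other genes, and MMP2 and TIMP3 lie around or under the line.

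MMP1, the interstitial collagenase, which opens the triple helix of fibrillar collagens, had a signal of 465 and 436 in ING3 cells, against 155 and 165 in control cells. Both ING3 arrays were above both control arrays, and the arrays of a group lay close together, 0.09 log2 units apart in each group. Its signal averaged 451 ± 20.9 in ING3 cells and 160.0 ± 7.37 in control cells (SD, n = 2 each), a log2 difference of 1.49 (SE 0.17, 95% interval 1.11 to 1.87, limma adjusted p = 0.0058). In such bulk RNA, more cells that make a transcript and more of it per cell cannot be told apart. No called gene had a larger rise, and the 5 genes with a larger positive difference were not called. MMP1 had 1 probe set, so no second measurement on the array could be set beside it. The call was lost without control array a (adjusted p = 0.11), without control array b (adjusted p = 0.080), and when the variance was modelled without a trend on intensity (adjusted p = 0.24). The log2 difference in these 3 fits was 1.44, 1.53 and 1.49. With 1 control array the spread comes from the ING3 pair, and the lone array is assumed to vary alike.

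**Figure D2:**
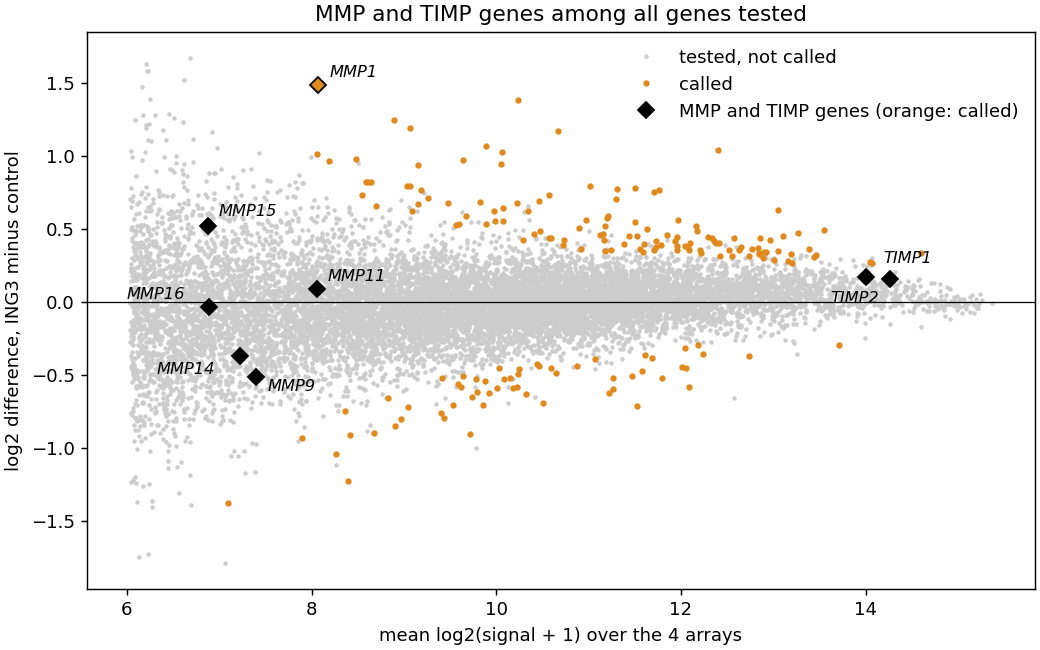
Log2 difference, ING3 minus control, against the mean log2(signal + 1) over the 4 arrays for the 12190 genes tested (grey, not called; orange, called), with the 8 tested MMP and TIMP genes as diamonds. MMP1, at 1.49, is the diamond in orange, and the other 7 lie between -0.51 (MMP9) and 0.52 (MMP15), among the genes not called.

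The genes most like MMP1 across the arrays were sought by Euclidean distance over the 4 arrays, each gene taken as its log2 values minus its own control mean. The nearest 5 were AKR1C1 (distance 0.22), an aldo-keto reductase of steroid metabolism, HLA-DRB1 (0.35), an HLA class II chain, APOBEC3G (0.46), a cytidine deaminase that restricts retroviruses, C11orf96 (0.49) and GLDC (0.52), the glycine decarboxylase of mitochondria. AKR1C1, the nearest, had 1953 and 1943 in ING3 cells, against 779 and 716 in control cells, a log2 difference of 1.38 (SE 0.09, limma adjusted p = 0.00028). HLA-DRB1, APOBEC3G and GLDC were also called, with log2 differences of 1.25, 1.19 and 1.17, and C11orf96 was not, at 1.16 (SE 0.27, limma adjusted p = 0.071). All 5 were picked for their likeness to MMP1 on these same arrays, so their direction and size follow from the choice. AKR1C1, HLA-DRB1 and C11orf96 were read by probe sets of kinds (_x_at and _s_at) that can cross-hybridise with close relatives. The brightest probe sets of MMP9, MMP11, MMP15, MMP16, TIMP2 and TIMP3 were also of these kinds. Those of MMP1, MMP2, MMP14 and TIMP1 were not.

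MMP1 lies in a cluster of MMP genes on chromosome 11, between MMP10 and MMP3, both of them stromelysins. The 9 genes, in their order along the chromosome, were MMP7, MMP20, MMP27, MMP8, MMP10, MMP1, MMP3, MMP12 and MMP13, and the other 8 were all under the filter on dim genes. Their signals ranged from 2.22 to 67.7 over the 4 arrays. MMP10 had 17.7 and 22.6 in ING3 cells, against 35.2 and 3.99 in control cells. MMP3 had 22.7 and 35.1 in ING3 cells, against 54.9 and 3.10 in control cells. On both neighbours the control arrays enclosed the ING3 arrays, and the control arrays lay 2.86 (MMP10) and 3.77 (MMP3) log2 units apart, more than the groups differed for MMP1.

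**Figure D3:**
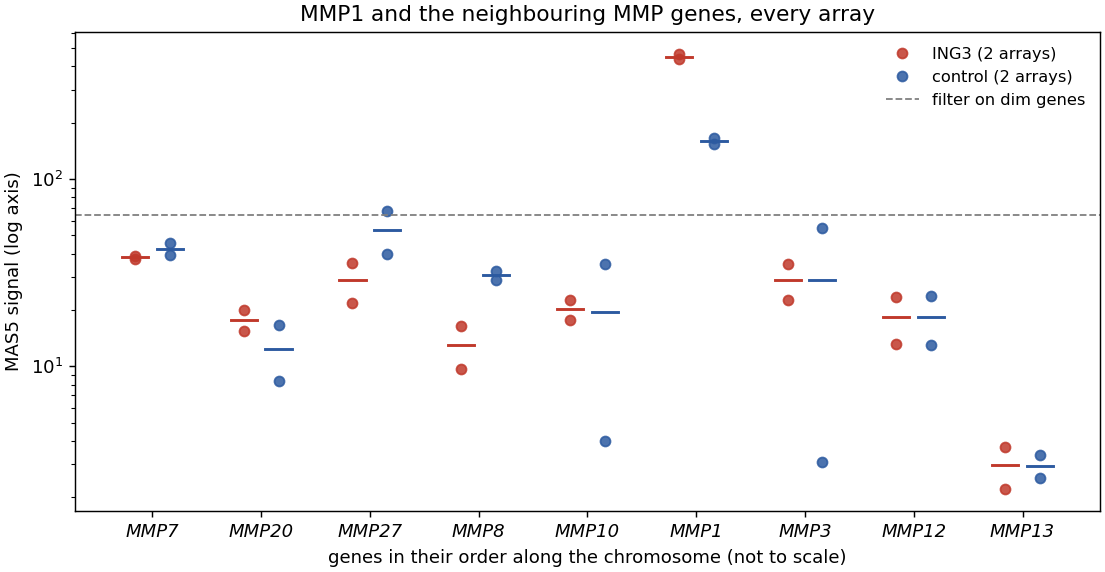
MAS5 signal (log axis) of MMP1 and the 8 MMP genes beside it, in their order along the chromosome and not to scale, on each array, ING3 left in red and control right in blue, with bars at the group means. MMP1 stands above the dashed filter line (64.6) on all 4 arrays, and the highest point of the other genes is 67.7, for MMP27 on a control array.

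The gelatinases cut denatured collagen and the type IV collagen of basement membranes. MMP9, gelatinase B, had 137 and 145 in ING3 cells, against 238 and 169.8 in control cells, and both ING3 arrays were below both control arrays. The control arrays differed by 0.49 on the log2 scale, nearly as much as the groups did, and MMP9 did not pass the test (log2 difference -0.51, SE 0.24, 95% interval -1.06 to 0.03, limma adjusted p = 0.31). MMP2, gelatinase A, which membrane-type MMPs and TIMP2 activate together on the cell surface, was under the filter. Its brightest probe set had 11.4 and 36.2 in ING3 cells, against 66.8 and 59.3 in control cells, so the ING3 arrays were lower but 1.58 log2 units apart from each other. The log2 difference was -1.57, while the 2 dimmer MMP2 probe sets had 0.72 and 0.12, with overlapping groups. Without the filter MMP2 did not pass either (limma adjusted p = 0.38).

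MMP11, stromelysin-3, is activated by furin inside the cell and is known from the stroma of carcinomas. It had 226 and 329.8 in ING3 cells, against 323 and 204 in control cells. The groups overlapped fully, with a log2 difference of 0.09 (SE 0.26, 95% interval -0.49 to 0.67, limma adjusted p = 0.90). Its second probe set above the filter had 132 and 61.7 in ING3 cells, against 68.4 and 62.3 in control cells, where 1 ING3 array was high and the other lay just below the control arrays.

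The membrane-type MMPs are anchored at the cell surface. MMP14, known as MT1-MMP, the activator of pro-MMP2 and itself a collagenase, had 159 and 107 in ING3 cells, against 177 and 161 in control cells. Both ING3 arrays were below both control arrays, array a only just, and MMP14 did not pass (log2 difference -0.37, SE 0.27, 95% interval -0.97 to 0.23, limma adjusted p = 0.51). Its 3 other probe sets were under the filter, and their log2 differences were 0.26, -0.42 and -0.10.

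MMP15, known as MT2-MMP, had 160.3 and 121 in ING3 cells, against 95.4 and 98.8 in control cells. Both ING3 arrays were higher, with a log2 difference of 0.52 that did not pass (SE 0.28, 95% interval -0.12 to 1.15, limma adjusted p = 0.38), and the dim second probe set went the other way, at -0.90. MMP16, known as MT3-MMP, had 97.1 and 139 in ING3 cells, against 189 and 74.7 in control cells. The control arrays enclosed the ING3 arrays, and the log2 difference was -0.03 (SE 0.42, 95% interval -0.99 to 0.92, limma adjusted p = 0.98), a sign that turned after quantile normalization and cyclic loess. Its 4 other probe sets, all under the filter, had log2 differences between -1.19 and 1.06.

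The inhibitors TIMP1 and TIMP2 were among the brightest genes of the array, with 99.4% and 99.2% of all probe sets dimmer, although a probe set's signal depends on its probes as well as on the RNA. TIMP1, a secreted inhibitor with a strong preference for MMP9 and little action on MMP14, had 20799.5 and 20808 in ING3 cells, against 18551 and 18895 in control cells. Both ING3 arrays were above both control arrays by a small margin, a ratio of means of 1.11 and a log2 difference of 0.15 (SE 0.05, 95% interval 0.04 to 0.27), which did not pass over all genes (limma adjusted p = 0.17). The interval is not adjusted for the number of genes.

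TIMP2, which inhibits MMPs and also takes part in the activation of pro-MMP2 by MMP14, had 16606 and 18259.6 in ING3 cells, against 16389 and 14695 in control cells. The nearest arrays of the groups lay closer together than the arrays within either group, and the gene did not pass (log2 difference 0.17, SE 0.07, 95% interval 0.01 to 0.32, limma adjusted p = 0.26). The second probe set had 8460.05 and 10239 in ING3 cells, against 7949 and 8133 in control cells, and the third had 1772 and 1804 in ING3 cells, against 1458 and 1538 in control cells. All 3 TIMP2 probe sets had both ING3 arrays above both control arrays, with log2 differences of 0.17, 0.21 and 0.26, and they read the same RNA, so they are not independent. TIMP3, the inhibitor that binds to the matrix and also blocks ADAM and ADAMTS proteases, was under the filter. Its brightest probe set had 49.3 and 37.4 in ING3 cells, against 73.0 and 43.8 in control cells, with overlapping groups and a log2 difference of -0.39.

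Fitted with 1 row per probe set, 1 of the 11 MMP and TIMP probe sets above the filter was called, that of MMP1 (limma adjusted p = 0.016), where 0.37% of all 27305 probe sets tested were called. Of these 11, 6 had both ING3 arrays above both control arrays, 2 had both below, and 3 overlapped, where 48.1% of all probe sets tested did not overlap. The other 17 probe sets of the family were under the filter.

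**Figure D4:**
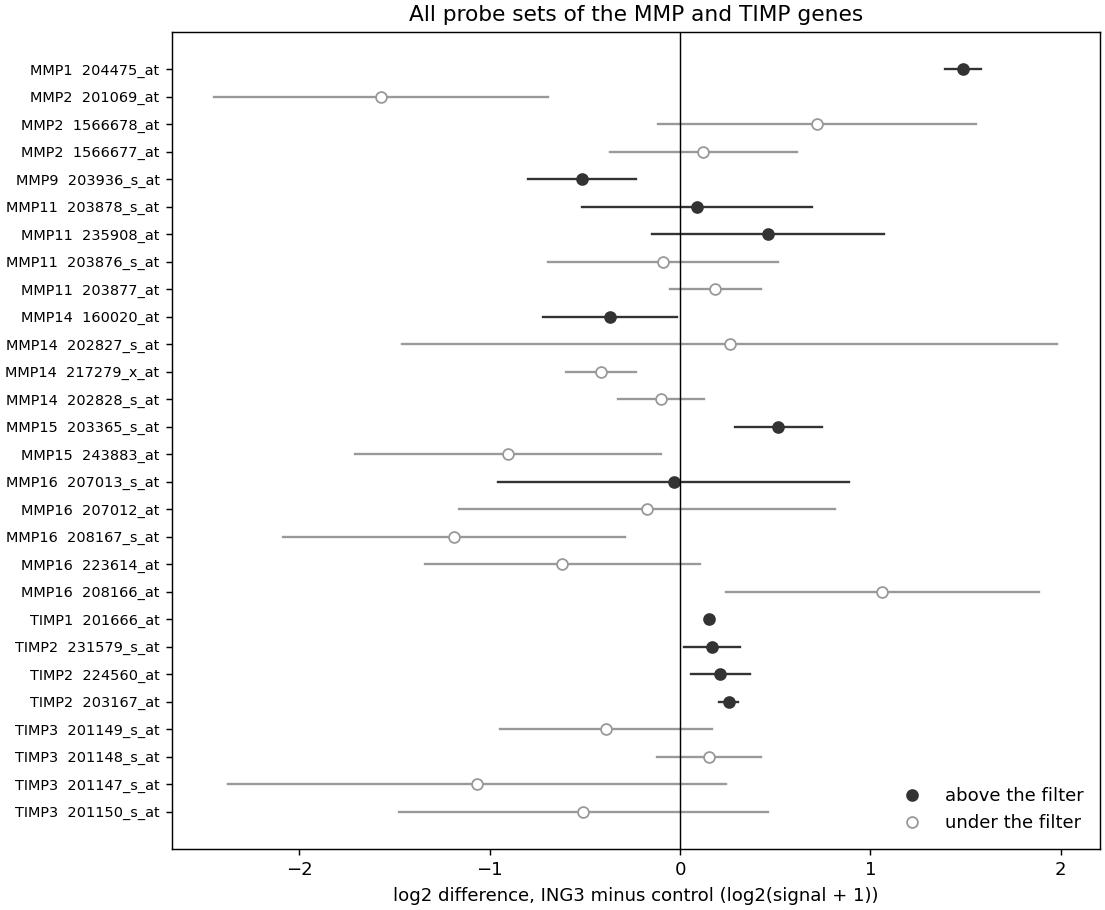
Log2 difference, ING3 minus control, of all 28 probe sets of the 10 genes, grouped by gene and ordered by brightness within a gene (filled, above the filter on dim genes; open, under it). The line through a point spans the lowest to the highest of the 4 differences between an ING3 array and a control array. The MMP1 line lies far to the right of 0, the TIMP1 and TIMP2 lines are short and just to the right of it, and most open points have lines that cross 0.

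The other genes of the family and of its control were taken from lists made by role. Of 16 other MMPs, 15 had a probe set and 2 passed the filter, and neither was called. With 1.03% of all genes tested called higher and 0.476% lower, so few genes would seldom hold a call. MMP19 had 87.2 and 102 in ING3 cells, against 121 and 52.1 in control cells. MMP25, a leukocyte membrane-type MMP, had 34.2 and 129.9 in ING3 cells, against 126 and 189 in control cells, a log2 difference of -1.19 (SE 0.54, limma adjusted p = 0.29) that rested on ING3 array a. MMP28, epilysin, was chosen after its values were seen. It was under the filter on its mean, with 30.0 and 18.9 in ING3 cells, against 135 and 88.6 in control cells, so both control arrays were above the filter's signal and both ING3 arrays under it. Of 7 other inhibitors 3 passed the filter and none was called, against the same shares of all genes tested. RECK, a membrane-anchored inhibitor, had 547 and 502 in ING3 cells, against 655 and 581 in control cells (log2 difference -0.24, SE 0.12, limma adjusted p = 0.35), and SPOCK2 and A2M, a plasma protease trap, had log2 differences of -0.43 and -0.40.

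Of 12 proteases that can activate pro-MMPs, 9 were tested, and 1 was called higher and 0 lower. Among all genes tested the shares were 1.03% higher and 0.476% lower. PLAU, urokinase, which turns plasminogen into plasmin, had 7936 and 8561 in ING3 cells, against 6673 and 6495 in control cells (log2 difference 0.32, SE 0.06, limma adjusted p = 0.038), and its second probe set had a log2 difference of 0.37. The PLAU call was lost without ING3 array b (adjusted p = 0.067), without either control array (0.28 without a, 0.31 without b), after quantile normalization (0.062), after cyclic loess (0.058), without the filter (0.098) and with averaged probe sets (0.075), and fitted by probe set it had an adjusted p of 0.084. FURIN, the protease that activates MMP11 and the membrane-type MMPs, had 184 and 176 in ING3 cells, against 172 and 149 in control cells, which did not pass (limma adjusted p = 0.74). The median log2 difference of the 9 was -0.05.

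Of 15 docking and clearance partners and inducers of MMPs, 13 were tested, and 0 were called higher and 1 lower. The shares of all genes tested were 1.03% higher and 0.476% lower. CLDN1, a tight junction protein that can promote the activation of pro-MMP2, had 2824 and 2938 in ING3 cells, against 3945 and 3589.8 in control cells (log2 difference -0.39, SE 0.07, limma adjusted p = 0.034). Its second probe set went the other way, with 205 and 262 in ING3 cells, against 187 and 202 in control cells, so the direction of CLDN1 is uncertain, and the call was lost when the probe sets were averaged (log2 difference -0.07, adjusted p = 0.79), without the filter (0.086) and without either control array (0.30 without a, 0.20 without b). BSG, the MMP inducer EMMPRIN, had 2610.1 and 2582 in ING3 cells, against 2204 and 2109.6 in control cells, a log2 difference of 0.27 that did not pass (SE 0.07, limma adjusted p = 0.091). CD44, a cell surface docking site of MMP9, had a log2 difference of -0.05 (SE 0.05).

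Of 15 AP-1 and ETS factors, which bind regulatory regions of MMP genes, 12 were tested, and 2 were called higher and 0 lower. For all genes tested, 1.03% were called higher and 0.476% lower. FOSL1, an AP-1 subunit, had 2122 and 1822 in ING3 cells, against 1215 and 1153 in control cells (log2 difference 0.73, SE 0.09, limma adjusted p = 0.0094). JUNB, another AP-1 subunit, had 792 and 774 in ING3 cells, against 417 and 550.1 in control cells (log2 difference 0.71, SE 0.14, limma adjusted p = 0.049). The JUNB call was lost after quantile normalization (adjusted p = 0.052), after cyclic loess (0.051) and without the filter (0.12). It was also lost with averaged probe sets (0.12) and without probe sets that may cross-hybridise (0.053). JUNB had 1 probe set, not of that kind, and stayed at 0.71 in both, so only the fit over other genes changed. Without any 1 of the 4 arrays the call was lost too, at log2 differences between 0.51 and 0.91. The FOSL1 call was lost without either control array (adjusted p = 0.19 without a, 0.16 without b). The calls of PLAU, CLDN1, FOSL1, JUNB, KRT8 and KRT19 were all lost without an intensity trend and against a 1.5-fold change. Fitted by probe set, those of CLDN1 (limma adjusted p = 0.079), JUNB (0.091) and KRT8 (0.074) were lost like that of PLAU. FOSL1 (0.027) and KRT19 (0.025) were still called there. PLAU and KRT8 had only probe sets of kinds that may cross-hybridise, so neither was tested without them. The remaining AP-1 genes tested did not pass: FOS, JUND, JUN and FOSL2 had log2 differences of 0.70, 0.23, 0.18 and 0.13. The ETS factors did not pass either, with 0.65 for ELF3 (SE 0.18, limma adjusted p = 0.10) and between -0.06 and 0.11 for ETS1, ETS2, ETV1, ETV4 and ETV5. The median log2 difference of the 12 was 0.16, against the -0.01 of all genes tested.

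None of the related proteases and substrates tested was called. At shares of 1.03% higher and 0.476% lower among all genes tested, lists this short would seldom hold a call. Of 21 ADAM and ADAMTS genes 10 were tested, with log2 differences between -0.44 (ADAMTS13) and 0.40 (ADAM22) and a median of 0.05. Of 25 matrix proteins cut by MMPs 15 were tested, with log2 differences between -0.72 (COL7A1) and 1.05 (LAMB3) and a median of -0.04. Of the 15, 6 had a higher mean in ING3 cells and 9 a lower one. COL1A1 and COL1A2 encode the chains of type I collagen, a substrate of MMP1. Their log2 differences were -0.45 (SE 0.20, limma adjusted p = 0.27) and -0.25 (SE 0.06, limma adjusted p = 0.091). COL3A1, of another fibrillar collagen, had -0.04 (SE 0.09). The laminin chains LAMB3 and LAMB1 had 1.05 (SE 0.26, limma adjusted p = 0.084) and 0.82 (SE 0.19, limma adjusted p = 0.069). The lowest were COL7A1, at -0.72 (SE 0.29, limma adjusted p = 0.24), and VCAN, at -0.69 (SE 0.25, limma adjusted p = 0.20).

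**Figure D5:**
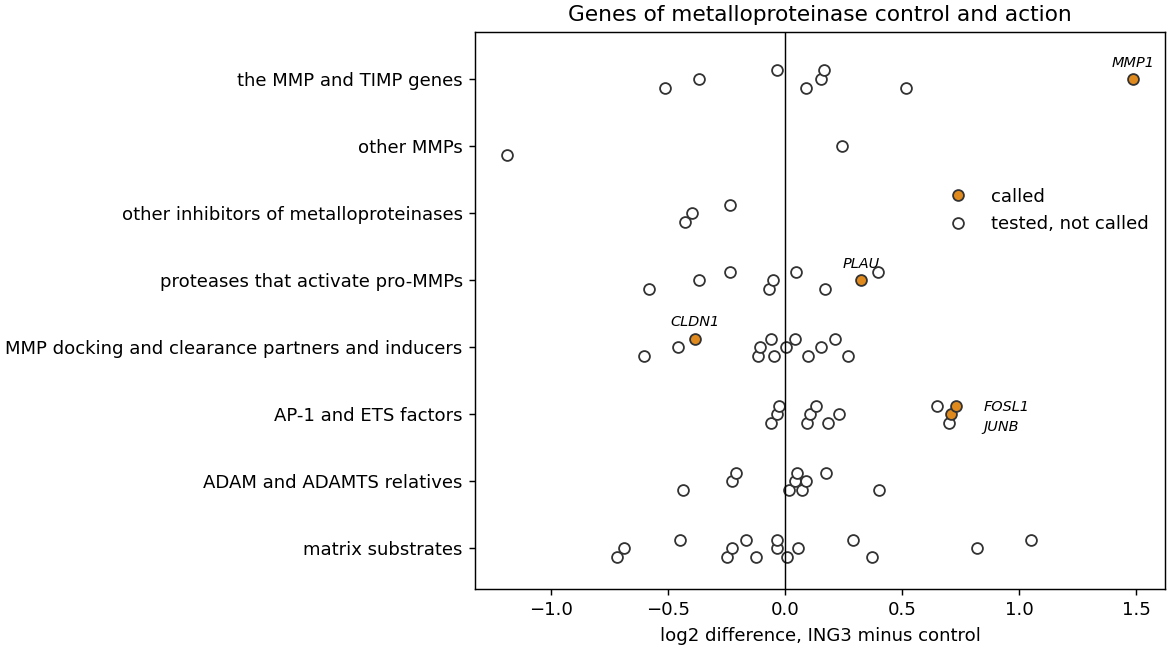
Log2 difference, ING3 minus control, of every tested gene of the 8 MMP and TIMP genes and of 7 lists of other MMPs, inhibitors, activators, partners, transcription factors, relatives and substrates (orange, called; open, tested and not called; points are spread vertically within a row for legibility). The called genes are MMP1, PLAU, FOSL1 and JUNB on the right and CLDN1 on the left.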

How the data were processed

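Per the submitters' processing notes, the authors made the deposited table with Affymetrix Expression Console and MAS5, and its values are linear signal intensity per probe set, with no versions stated there. Each array's trimmed mean was about 500.1, so the arrays had been set to 1 level, and dim probe sets varied widely between duplicates. Probe sets were named from GEO's platform annotation of 2016. Control probe sets (62) were left out. Values were taken as log2(signal + 1), which understates changes of dim genes. Groups came from the titles. limma 3.58.1 in R 4.3.3 (lmFit, eBayes with an intensity trend, two-sided, no covariates) was fitted across all genes, with Benjamini-Hochberg adjustment over all genes, 2 residual and 7.35 borrowed degrees of freedom. The script was tested on simulated data. Intervals are 95% and from the same fit. "Rose" and "fell" are used of called genes. Named were all 10 genes, called genes of each list and the 5 genes nearest to MMP1. So were tested genes of the lists of other MMPs, inhibitors and transcription factors. MMP28, MMP3, MMP10, FURIN, BSG, CD44, ADAM22, ADAMTS13, COL1A1, COL1A2, COL3A1, COL7A1, VCAN, LAMB1 and LAMB3 were chosen after their values were seen. The genes and lists were chosen with earlier results of these data known. Promoter sequences came from RefSeq.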

Additional observations from a re-analysis of the deposited data

How the results depend on the processing

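Over 16 alternatives the MMP1 difference kept its direction in 16 (1.20 to 1.59, adjusted p between 0.00053 and 0.69). MMP1 was the 1 gene of the family called among 8 tested with robust variances, quantile normalization, cyclic loess, pseudocounts of 16 and 64 and a replicate block, among 10 without the filter, among 5 without _x_at and _s_at probe sets, and among 4 each with a filter at 200 and with averaged probe sets. Without an intensity trend 0 genes of the family and 0 of all genes were called (1686 at an unadjusted p under 0.05), with an MMP1 adjusted p of 0.24 at 1.49. Against a 1.5-fold change 0 of the family and 1 of all genes were called (MMP1 at 1.49, adjusted p = 0.69). Leaving out 1 array gave 0 to 1 genes of the family, 2 to 305 of all genes, and an MMP1 difference between 1.44 and 1.535, and the group with 1 array left is then assumed to vary like the other, which alone gives the spread. 183 genes were called in all, against 115 after quantile normalization, 54 without the filter, 37 with averaged probe sets, 100 without the _x_at and _s_at kinds and 442 with the replicate block. The letters a and b showed no shared shift across the groups (correlation of their differences over genes 0.03). This cannot show whether the arrays were paired by design. MMP16 turned positive after quantile normalization (0.083) and cyclic loess (0.11) and ran between -0.70 and 0.63 with 1 array left out; MMP11 ran between -0.24 and 0.42. The other genes kept their direction with 1 array left out, but not their size: MMP2 ran between -2.36 and -0.78, MMP9 between -0.76 and -0.27, MMP14 between -0.65 and -0.09, MMP15 between 0.31 and 0.72, TIMP2 between 0.09 and 0.24, and TIMP3 between -0.75 and -0.03, while TIMP1 ran between 0.14 and 0.17. TIMP1 shrank from 0.15 to 0.11 after quantile normalization and 0.07 after cyclic loess. TIMP2 shrank likewise, from 0.17 to 0.11 and 0.09. MMP2 stood at -0.55 with a pseudocount of 64 and -0.24 with averaged probe sets. The causes were not tested. MMP2 and TIMP3 were under the filter on their means. The lowest arrays of MMP14, MMP15 and MMP16, at signals of 107, 95.4 and 74.7, lay not far above it. Readings this dim call for caution.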
